A study of Homo sapiens with 2 samples.

Results

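The ABCA genes encode large ATP-binding cassette proteins that move sterols and phospholipids across membranes. The 8 described here are ABCA1, ABCA2, ABCA3, ABCA5, ABCA6, ABCA7, ABCA9 and ABCA10, of 60623 genes counted in the series. They were chosen by their RNA counts in the 2 libraries compared below, so their ratios describe these libraries and are not tested. ABCA5, ABCA6, ABCA9 and ABCA10 lie side by side on chromosome 17, and the other 4 lie elsewhere. The cells were OCI-AML3, a line grown from a human acute myeloid leukaemia and labelled as wild type. They grew in MEM alpha medium with 20% FBS. Omipalisib (GSK2126458), a small-molecule inhibitor of class I PI3 kinases and mTOR, was given at 50 nM, the controls got DMSO, its vehicle, and exposure lasted 24 h. Each treatment has 1 library, and all the cells are of 1 line.

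In background terms, each full-length ABC transporter of this subfamily has a pair of membrane domains and a pair of nucleotide-binding domains that hydrolyse ATP. ABCA1 exports cholesterol and phospholipid to apolipoprotein A-I, the first step in making high-density lipoprotein, and is a classical target of the liver X receptors (LXR), which sense oxidised sterols. ABCA7 is its close relative and has been tied to phospholipid export and phagocytosis. ABCA2 works in late endosomes and lysosomes, and ABCA3 loads phospholipid into the lamellar bodies of lung surfactant cells. ABCA5 is also lysosomal. ABCA6, ABCA8, ABCA9 and ABCA10 are less well understood relatives of one another. In monocytes and macrophages, ABCA1, ABCA6 and ABCA9 have been described as responsive to cholesterol load.

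All 4 chromosome 17 genes were at least 2-fold higher in the omipalisib library, and the 4 genes elsewhere were higher by smaller ratios. ABCA9 differed most, at 6.16-fold, and ABCA7 least, at 1.14-fold. Another gene of the chromosome 17 block, ABCA8, went from 0 counts to 14, under the minimum of 20 for a call.

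The libraries held 26367832 (DMSO) and 22599164 (omipalisib) counted fragments. Log2 ratios are omipalisib over DMSO after scaling the libraries with TMM, which sets most genes to no change, so a ratio is relative to the library's other genes and is no amount per cell. In bulk RNA, fewer cells of a type and less RNA per cell cannot be told apart. The 95% interval after each ratio is exact (Clopper-Pearson) and covers counting error only. With 1 library a side there is no replicate check and no p-value, and the intervals speak of these 2 libraries alone. A gene is called higher or lower where its interval excludes 0, among the 15660 genes whose counts sum to 20 or more, called measured, and their median log2 ratio was 0.0029. Of these, 26.1% were higher and 28.6% lower, while 4.02% were higher and 1.29% lower by 2-fold or more. Levels of different genes are given per exon length, as scaled counts per 1000000 (CPM) divided by kilobases of exon (FPKM).

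The stretches before the start sites of 4 members are shown first. Those of ABCA6, ABCA9 and ABCA1 hold motif matches described below, and that of ABCA5 shows the GC-rich start within the chromosome 17 block. They were read from RefSeq's promoter table (GRCh38.p14), in which all 8 members matched and ABCA8 did not, and each is written 5′ to 3′ on the gene's strand up to the start site. Where the annotation of the count files starts a gene further upstream, the stretch ends there. All 4 lie on the minus strand, ABCA6 at chr17:69141896-69142145, ABCA9 at chr17:69060950-69061177, ABCA5 at chr17:69327245-69327383 and ABCA1 at chr9:104928156-104928405. Capitals mark a forkhead core in ABCA6, an E-box in ABCA9 and ABCA1, and, nearer the start of ABCA1, the LXR element.
ABCA6: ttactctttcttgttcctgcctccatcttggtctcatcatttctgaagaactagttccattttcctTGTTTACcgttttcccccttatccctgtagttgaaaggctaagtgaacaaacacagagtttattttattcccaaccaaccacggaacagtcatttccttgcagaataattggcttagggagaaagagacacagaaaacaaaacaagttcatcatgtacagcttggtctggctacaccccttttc
ABCA9: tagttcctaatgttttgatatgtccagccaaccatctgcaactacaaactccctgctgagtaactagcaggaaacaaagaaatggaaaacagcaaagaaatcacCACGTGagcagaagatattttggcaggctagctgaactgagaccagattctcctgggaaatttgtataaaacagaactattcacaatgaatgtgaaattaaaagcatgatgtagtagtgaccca
ABCA5: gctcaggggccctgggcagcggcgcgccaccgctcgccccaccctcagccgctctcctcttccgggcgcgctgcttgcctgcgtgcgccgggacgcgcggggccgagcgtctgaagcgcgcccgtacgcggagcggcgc
ABCA1: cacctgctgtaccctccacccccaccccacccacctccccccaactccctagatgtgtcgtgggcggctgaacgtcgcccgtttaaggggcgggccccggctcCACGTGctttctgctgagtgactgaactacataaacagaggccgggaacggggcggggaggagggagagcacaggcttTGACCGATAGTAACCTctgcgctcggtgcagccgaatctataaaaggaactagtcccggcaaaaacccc

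Base composition separated ABCA5 from its neighbours. Over the 250 bases before the RefSeq start, GC content was 40.8% for ABCA6 and 39.2% for ABCA9, and 23.6% and 31.2% at the 2 listed starts of ABCA10. ABCA5 had 79.2%. The members elsewhere had 61.6% (ABCA1), 65.2% and 85.6% (the 2 starts of ABCA2), 79.2% (ABCA3) and 70.4% (ABCA7), against a median of 58.0% over 35116 promoters of the table. CpG dinucleotides numbered 2 in ABCA6, 1 in ABCA9 and 42 in ABCA5. So 3 of the 4 chromosome 17 members have start regions poorer in GC than the median promoter, while ABCA5 resembles the members elsewhere in this respect. The first listed start region of ABCA10 lies wholly inside exon sequence of ABCA5, near the end of that gene on the same strand.

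Motif letters were searched on both strands of the same 250 bases. The forkhead core GTAAACA, the shared part of sites bound by FOXO factors, occurred in 1 of the 8 members, ABCA6, on the opposite strand 184 bases before the start, and in 2.98% of all promoters. The E-box CACGTG, read by basic helix-loop-helix factors such as MYC, USF and the TFEB family, occurred in ABCA1 and ABCA9, at 147 and 146 bases before the start, and in 6.34% of promoters. The nuclear receptor half-site AGGTCA was in none of the 8 and in 12.1% of promoters. A loose pattern for the DR4 element of LXR, kept wide enough to take in the known ABCA1 site, matched ABCA1 and no other member, and 0.413% of promoters. TAAACA, which lies within the forkhead core, was also in ABCA1, 116 bases before the start, and in the second start region of ABCA10, 31 bases before it, and in 11% of promoters. A match is a string of letters, not a bound site.

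ABCA9 (ENSG00000154258) had the largest ratio of the members. It is annotated on GRCh38 at chromosome 17, 68974488 to 69060949, minus strand, with 41 merged exon blocks and 9024 exon bases. Its count was 186 in DMSO and 1018 in omipalisib, a level of 0.795 against 4.91 FPKM. The log2 ratio was 2.62 (2.40 to 2.86), the 14th highest of all 15660 measured genes and the 9th of 12260 measured protein-coding genes. ABCA9 thus went from the lower levels of the coding transcriptome, above 16.2% of measured coding genes, to near the middle, above 44.1%. The antisense gene ABCA9-AS1 shares 534 exon bases with it on the other strand and had 0 counts in both libraries, and counting was by strand.

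ABCA6 (ENSG00000154262; chromosome 17, 69078702 to 69141895, minus strand) had 384 counts in DMSO and 1178 in omipalisib. Its level was 1.05 FPKM against 3.62 FPKM (log2 ratio 1.79, 1.62 to 1.96), or 3.46-fold. In DMSO its level was the highest of the 4 chromosome 17 members, and in omipalisib ABCA9 stood above it.

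ABCA5 (ENSG00000154265; 69244311 to 69327244, minus strand), the lysosomal member of the block, had 201 and 575 counts. Its level was 0.589 FPKM against 1.90 FPKM, and its log2 ratio was 1.69 (1.46 to 1.93). ABCA10 (ENSG00000154263; 69147214 to 69244846, minus strand) had 92 and 207 counts, a level of 0.422 against 1.07 FPKM. Its log2 ratio of 1.34 (0.98 to 1.71) was the smallest in the block, and the lower bound of its interval lay just under a 2-fold ratio. ABCA5 and ABCA10 overlap by 536 bases at their ends and share 318 exon bases on the same strand, which is 2.42% of the exon length of ABCA5 and 3.78% of that of ABCA10. The counting command in the file headers has no option for assigning a fragment to more than 1 gene, so fragments in the shared bases alone go to neither.

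ABCA8 (ENSG00000141338; 68867289 to 68955392, minus strand) completes the block, although it is not among the 8. It had 0 counts in DMSO and 14 in omipalisib. These sum to less than the minimum of 20, so ABCA8 is not measured and is not called. With a floor of 3 counts in place of the 0, its level was at least 5.26-fold higher, without regard to counting error in the 14. The exact interval, which takes in the error of both counts, has a lower bound of 3.74-fold. Even so, it remained the lowest of the block, at 0.0542 FPKM.

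Close copies could mislead the counts of such relatives, so stretches of 75 bases in the members' annotated transcripts were looked up in the transcripts of all other genes. ABCA1, ABCA2, ABCA3, ABCA6 and ABCA7 shared none. ABCA9 shared 0.358% of its stretches, ABCA5 1.82% and ABCA10 2.72%. ABCA8, looked up as well, shared 0.25%, with ABCA9 among other genes. Whether any of the 14 counts of ABCA8 came from such stretches was not tested. The read length is not given in the sources used here.

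Among the members elsewhere, ABCA1 (ENSG00000165029; chromosome 9, 104781006 to 104928155, minus strand), the cholesterol exporter, was scarce. It had 115 counts in DMSO and 173 in omipalisib, a level of 0.394 against 0.668 FPKM, the lowest of the 8 in both libraries. Its log2 ratio was 0.76 (0.41 to 1.12).

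ABCA2 (ENSG00000107331; chromosome 9, 137007234 to 137028922, minus strand) was by far the most abundant member. It had 7528 and 10368 counts, a level of 25.2 against 39.2 FPKM, above 84.8% of measured coding genes in DMSO and 92.6% in omipalisib. Its log2 ratio was 0.64 (0.59 to 0.68). In scaled CPM this gene alone went from 290.4 to 451.1, a larger absolute difference than that of the 4 chromosome 17 genes together.

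ABCA3 (ENSG00000167972; chromosome 16, 2275881 to 2340746, minus strand), the surfactant lipid transporter, had 239 and 263 counts, or 1.18 against 1.47 FPKM. Its log2 ratio was 0.31 (0.05 to 0.57), and with a 99% interval (−0.03 to 0.65) it was no longer called. ABCA7 (ENSG00000064687; chromosome 19, 1040101 to 1065572, plus strand) had 1693 and 1718 counts, or 7.80 against 8.93 FPKM. Its log2 ratio of 0.19 (0.10 to 0.29) was the smallest of the 8.

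**Figure D1:**
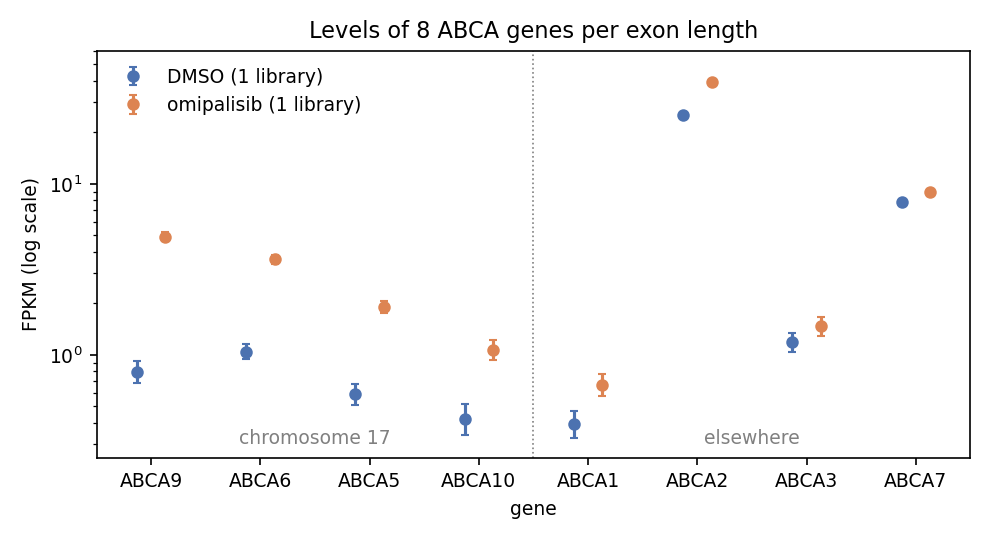
Level of each ABCA gene in FPKM (vertical log axis) in the DMSO library (blue) and the omipalisib library (orange), with exact 95% Poisson intervals for counting error, 1 library each. The 4 chromosome 17 genes lie between 0.422 and 1.05 FPKM in DMSO and between 1.07 and 4.91 FPKM in omipalisib, while ABCA2 is at 25.2 and 39.2 FPKM.

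By ratio, the order was ABCA9, ABCA6, ABCA5, ABCA10, ABCA1, ABCA2, ABCA3 and ABCA7. Only the steps from ABCA9 to ABCA6 and from ABCA2 to ABCA3 separated intervals that did not overlap. The step that divides the block from the rest, from ABCA10 to ABCA1, was 0.58 on the log2 scale, and these intervals overlapped. The median log2 ratio was 1.74 over the 4 chromosome 17 members, with a range of 1.34 to 2.62, and 0.47 over the 4 elsewhere, with a range of 0.19 to 0.76. The ranges did not overlap, and the medians differed by 1.27. Genes are not replicates and this contrast chose them, so the difference is a description.

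**Figure D2:**
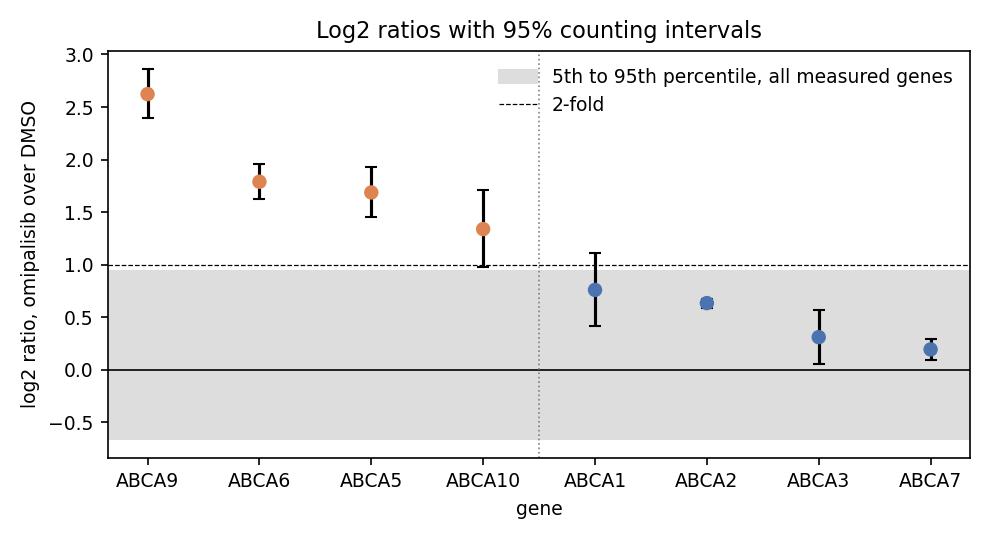
Log2 ratio of omipalisib over DMSO for each member (vertical axis) with its 95% counting interval, chromosome 17 genes in orange and the others in blue. The grey band spans the 5th to 95th percentile of all measured genes, −0.66 to 0.94, and the 4 chromosome 17 ratios lie above it, from 1.34 to 2.62.

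All 8 members were called higher, beside 26.1% of all measured genes, and 4 of 8 were at least 2-fold higher, beside 4.02%. The choice of members used these values, so nothing is read from the counts. The members are long genes, of 7804 to 14158 exon bases. Of the 2476 measured protein-coding genes in that length range, 35.2% were higher and 3.43% at least 2-fold higher, with a median log2 ratio of 0.04, against a median of 1.05 over the 8 members.

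**Figure D3:**
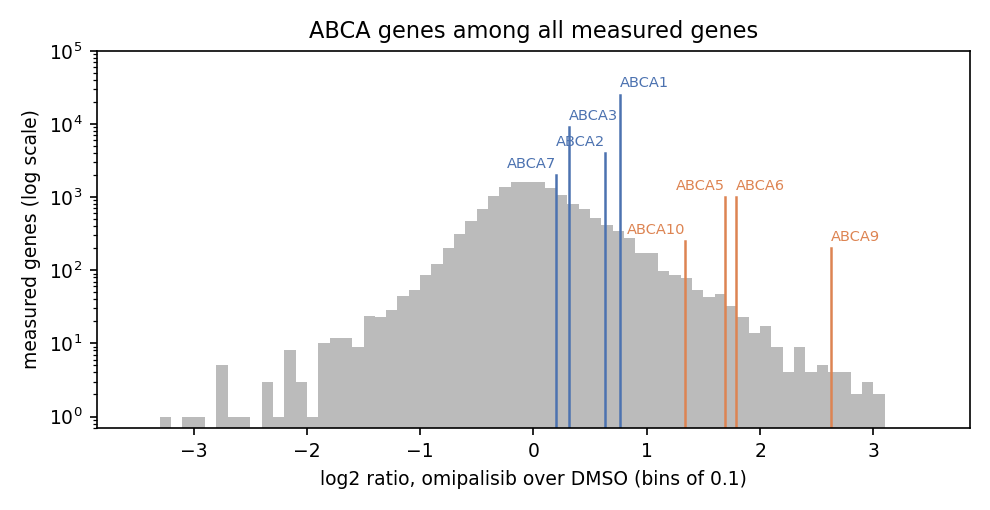
Number of measured genes (vertical log axis) by log2 ratio in bins of 0.1, with a line at the ratio of each member, orange for chromosome 17 and blue for elsewhere; the height of a line has no meaning. ABCA9 at 2.62 lies in the far upper tail, and ABCA7 at 0.19 lies near the bulk of the genes.

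The make-up of the family's RNA differed between the libraries. Of all fragments assigned to the 12 protein-coding ABCA genes of the files, the 4 chromosome 17 members took 8.26% (exact 95% interval 7.74 to 8.81) in DMSO, 863 of 10445. In omipalisib they took 19.2% (18.6 to 19.8), 2978 of 15516. ABCA2 took 72.1% (71.2 to 72.9) and 66.8% (66.1 to 67.6), and ABCA7 took 16.2% and 11.1%. Summed per length, the chromosome 17 members went from 2.85 to 11.5 FPKM and the members elsewhere from 34.6 to 50.3 FPKM. In both libraries most ABCA RNA was therefore ABCA2 and ABCA7, and the share of the chromosome 17 genes was larger with omipalisib.

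The other ABCA genes had few or no counts. ABCA4, the retinal retinoid transporter, and ABCA12, the skin lipid transporter, had 0 counts in both libraries, and ABCA13 had 7 and 2. The transcribed pseudogene ABCA11P had 96 and 71 counts (log2 ratio −0.26, −0.72 to 0.20), but 59.0% of its exon bases are shared with ZNF721 on the same strand. ABCA17P, whose span overlaps the start of ABCA3 on the opposite strand, had 19 and 15 counts (log2 ratio −0.16, −1.25 to 0.89).

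The 5 ABCA genes of chromosome 17 are transcribed in the same direction and fill 459.956 kb, from 68867289 to 69327244. Apart from the overlap of ABCA10 with ABCA5, the gaps between them are 5318 to 19095 bases. The block holds 7 other annotated genes, none of them measured, with at most 18 summed counts. The nearest measured gene on the right, MAP2K6, a kinase of the p38 pathway 87.5 kb away, had 177 and 106 counts and was lower (log2 ratio −0.56, −0.93 to −0.21). The nearest on the left, the pseudogene AC011591.2 at 151 kb, had 21 and 29 counts (log2 ratio 0.63, −0.22 to 1.52).

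Farther to the left, the 5 measured genes within 500 kb were higher. FAM20A, a pseudokinase of the secretory pathway 266 kb away, had 353 and 746 counts (log2 ratio 1.25, 1.07 to 1.44). PRKAR1A, a regulatory subunit of protein kinase A, had 0.41 (0.37 to 0.45), WIPI1, an autophagy protein, 0.63 (0.32 to 0.94), and ARSG, a lysosomal sulfatase, 0.53 (0.28 to 0.78). Within 500 kb of the block, 7 of 23 genes other than ABCA genes were measured, of which 5 were higher and 1 was lower. The fifth gene called higher, AC007780.1, a noncoding transcript whose span overlaps PRKAR1A on the same strand, had 8 and 18 counts (log2 ratio 1.30, 0.07 to 2.75). The 4 ratios of the block lay above those of its measured neighbours within 500 kb, but the intervals were not all separate. That of AC007780.1 overlapped all 4, that of AC011591.2 overlapped those of ABCA5 and ABCA10, and that of FAM20A overlapped that of ABCA10. Within 250 kb 0 of 2 were higher, and within 1000 kb 13 of 19, among which KCNJ2-AS1, at 1.74, lay above ABCA5 and ABCA10. Over all measured genes 26.1% were higher and 28.6% lower.

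**Figure D4:**
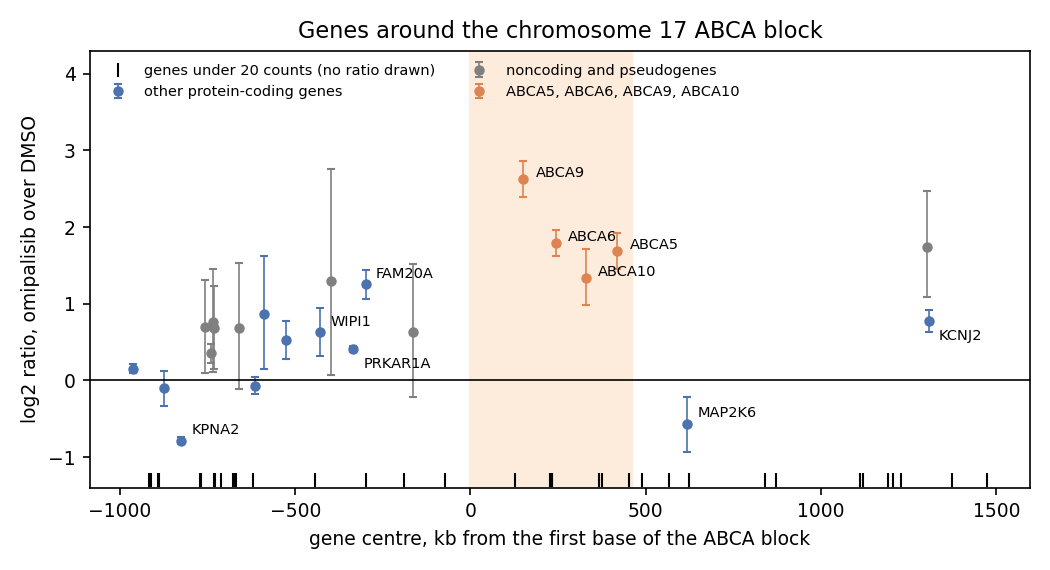
Log2 ratio of each measured gene within 1000 kb of the chromosome 17 ABCA block (vertical axis, with 95% counting intervals) by the distance of its centre from the first base of the block in kb; the shaded span is the block, and ticks mark other genes under 20 summed counts. The orange ABCA genes, at 1.34 to 2.62, lie above FAM20A at 1.25 and MAP2K6 at −0.56, while KCNJ2-AS1 at the right edge, at 1.74, lies above ABCA5 and ABCA10. ABCA8, with 14 counts, is not drawn.

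Around the members elsewhere, the neighbours within 500 kb were more often lower than higher, except near ABCA1, where 3 were measured and 1 was higher. Near ABCA2, 12 of 47 were higher and 17 lower. Near ABCA3, 11 of 54 were higher and 19 lower, and near ABCA7, 11 of 45 were higher and 22 lower. These counts stand beside 26.1% higher and 28.6% lower over all measured genes.

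Other ABC transporter genes, grouped by subfamily, were split in direction. Of 33 annotated genes of the ABCB to ABCG subfamilies, 21 were measured, and the median log2 ratio of the 21 was −0.09. Of these, 7 were higher and 9 lower, beside 26.1% and 28.6% of all measured genes. All 3 genes of the ABCF subfamily, whose products act in translation and not in transport, were lower: ABCF1 at −0.42 (−0.49 to −0.36), ABCF2 at −0.30 and ABCF3 at −0.25. ABCE1, which recycles ribosomes, had −0.38 (−0.43 to −0.33). In the ABCB subfamily 3 of 7 were lower and 1 was higher. ABCB10, a mitochondrial inner membrane protein, had 2673 and 1534 counts (log2 ratio −0.63, −0.72 to −0.54). ABCB8, also mitochondrial, had −0.33 (−0.45 to −0.21), and ABCB4, a phosphatidylcholine exporter, had 0.94 (0.58 to 1.31).

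In the ABCC subfamily the median was 0.34, and 5 of 6 measured genes were higher and none was lower. With DESeq2 size factors or the length trend removed 4 were higher. With a minimum of 200 counts 3 were higher and the median was 0.17. The shares over all measured genes were 26.1% and 28.6%. ABCC5, an exporter of cyclic nucleotides, had 1502 and 1871 counts (log2 ratio 0.49, 0.39 to 0.59). ABCC2 had 1.05 (0.47 to 1.66) on 38 and 70 counts. ABCC6 had 1.76 (0.34 to 3.66) on only 5 and 16 counts and resembles its own pseudogenes, so its count is uncertain. Of the 4 peroxisomal and lysosomal ABCD genes, ABCD2 (−0.86) and ABCD3 (−0.48) were lower and ABCD4 was higher at 0.45. None of the 5 ABCG genes was measured. Among them ABCG1, the partner of ABCA1 in cholesterol efflux, had 0 and 3 counts.

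**Figure D5:**
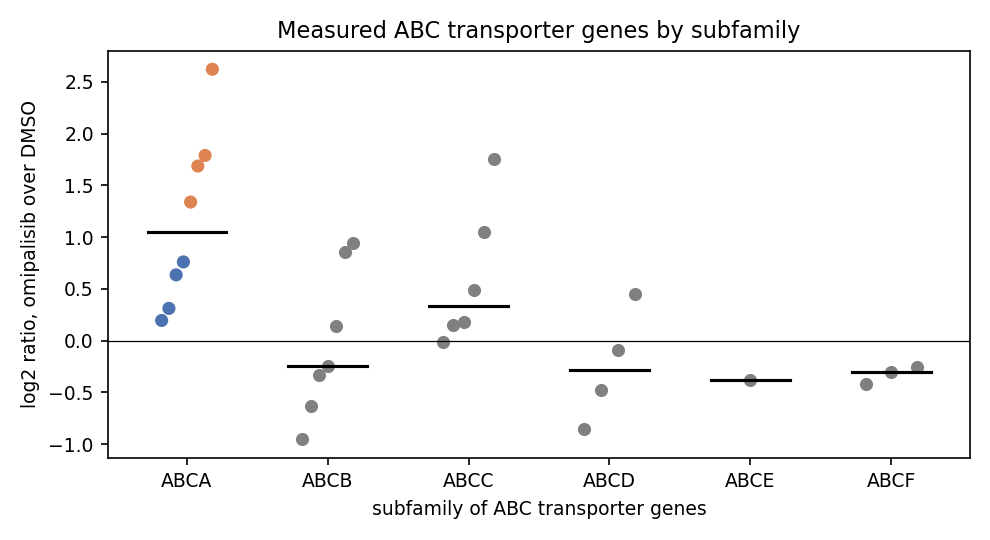
Log2 ratio of each measured gene (vertical axis) by ABC subfamily, each point 1 gene and each bar the median; in the ABCA column the 8 members are shown, chromosome 17 genes in orange. The ABCA median is 1.05, and the medians of the other subfamilies run from −0.38 for ABCE, a single gene, to 0.34 for ABCC.

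RNA of both LXR genes was present, and the measured LXR targets had no common direction. RNA levels do not give the activity of LXR, and its part in the ratio of ABCA1 was not tested. LXR alpha (NR1H3) had 960 and 1055 counts (log2 ratio 0.31, 0.18 to 0.44), and LXR beta (NR1H2) had 0.07 (−0.07 to 0.20). Of 11 sterol and fatty acid receptors, their partners and cofactors, 7 were higher and 1 was lower (median 0.29). The shares over all measured genes were 26.1% and 28.6%. PPARD, a fatty acid receptor, had 0.72 (0.57 to 0.86), PPARA 0.42 and the coactivator NCOA2 0.39. The number lower was 0 with library totals as the scale, and 2 with DESeq2 size factors or with the trend in gene length removed.

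Of 16 LXR targets other than ABCA1, 11 were measured, with a median of 0.12. Of these 11, 3 were higher and 4 lower, beside 26.1% and 28.6% of all measured genes. NR1H3, also in the receptor list, is among the 3 higher. APOE and APOC1, apolipoprotein genes of macrophages, were higher but scarce. APOE had 12 and 30 counts (log2 ratio 1.46, 0.49 to 2.60), and APOC1 had 17 and 31 counts, 1.02 (0.14 to 1.99). SCD, the stearoyl-CoA desaturase, was lower at −0.98 (−1.03 to −0.93), and SREBF1, the lipogenic transcription factor, at −0.51. With library totals as the scale 5 were higher, and with a minimum of 200 counts 1 was higher and the median was −0.25. With DESeq2 size factors or the length trend removed 5 were lower.

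Of 25 measured genes of sterol uptake, storage and movement within the cell, 7 were higher and 6 lower (median 0.04), shares near the 26.1% and 28.6% of all measured genes. The lipoprotein receptor gene LRP1 had 662 and 862 counts (log2 ratio 0.55, 0.41 to 0.70). PLIN2, a coat protein of lipid droplets, had 0.39 (0.32 to 0.46) and OSBPL9 0.24. VLDLR, a lipoprotein receptor gene, was lower at −0.59 (−0.82 to −0.36), and OSBPL10 was lower on 17 and 3 counts.

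Among the FOXO and TFEB family genes, whose products bind the 2 motifs found in ABCA6, ABCA9 and ABCA1, 2 of 7 measured were higher and 1 was lower. The shares over all measured genes were 26.1% and 28.6%. FOXO4 had 346 and 534 counts (log2 ratio 0.80, 0.60 to 0.999), and FOXO3 had 1638 and 1804 counts, 0.31 (0.22 to 0.41). TFEC was lower on 26 and 3 counts, at −2.75 (−5.31 to −1.24). With DESeq2 size factors 2 were lower, and with a minimum of 200 counts 0. RNA levels do not give the activity of these factors, and their part in the ratios of the members was not tested.

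The line expressed myeloid genes. Of 20 myeloid markers, 16 reached 1 CPM in DMSO, among them CEBPA, SPI1, CD33 and LYZ, while KIT had 0 counts. Of the 17 measured (median 0.14), 8 were higher and 4 lower, beside 26.1% and 28.6% of all measured genes. CSF1R, the receptor for macrophage colony-stimulating factor, had 834 and 2332 counts (log2 ratio 1.66, 1.54 to 1.77). CSF3R had 1.10 and FCER1G 0.50, while the granule protease genes CTSG and PRTN3 were lower at −0.999 and −0.96.

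Of 21 monocyte and macrophage markers, 15 were measured, with a median of 0.56. Of those, 9 were higher and 2 lower, beside 26.1% and 28.6% of all measured genes, and 4 were at least 2-fold higher, beside 4.02%. The summed level of the 21 was 777.3 CPM in DMSO and 888 in omipalisib. CD86 had a log2 ratio of 2.85 (2.54 to 3.18), CD14 2.22 (1.80 to 2.69) and ADGRE1 2.08 (1.67 to 2.53). CD163, a scavenger receptor of macrophages, was lower at −0.63 (−0.77 to −0.49), and SIGLEC1 at −0.04, on 12365 and 10636 counts. With library totals as the scale, 1 marker was lower, and with a minimum of 1 count the median was 0.18. CSF1R is in this list too. MSR1 had 0 counts in both libraries, and MRC1 and the complement genes C1QA, C1QB and C1QC were at or near 0. Whether these markers and the ABCA genes share a cause was not tested.

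Most markers of other lineages were not measured, but some had many counts. Of 14 erythroid and megakaryocyte markers, 9 were at 0 in both libraries and 2 were measured, PPBP lower at −1.35 and ITGA2B higher at 1.03. Of 14 lymphoid markers, 5 were at 0 and 5 were measured, 3 higher and 1 lower, beside 26.1% and 28.6% of all measured genes. The 1 lower was lost with library totals as the scale. IL7R had 1595 and 1868 counts (log2 ratio 0.40), PAX5 had a log2 ratio of −0.37, and GNLY and CD79A had at most 18 counts in a library. Of 14 stromal, endothelial and epithelial markers, 2 were at 0 in both libraries and 5 were measured. COL1A2, with 2507 and 1564 counts, was lower at −0.51, and PECAM1 was higher at 0.93. The part of these markers in the ratios of the members was not tested.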

How the data were processed

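RNA was measured in 2 libraries of OCI-AML3, 1 per treatment, grouped by the treatment in the labels. Per the labels' protocols, strand-specific libraries were made from total RNA. The authors deposited raw counts per gene, made with featureCounts 2.0.1 over exons with the reverse-strand setting for read pairs mapped at both ends, per the file headers. The sources used here do not give the aligner. The deposited files also hold other values, the exon length of each gene, which served for FPKM.

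The submitters' processing notes name hg19 and GRCh37, but of 58516 genes found in GENCODE release 29, 58513 overlap their GRCh38 position, so coordinates are given as GRCh38. Symbols came from that release and a gene name table.

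Libraries were scaled by TMM (edgeR 4.0.16, R 4.3.3; factors 0.983 and 1.02), 0.5 was added to each count for the log2 ratio, and exact Clopper-Pearson intervals at 95% were computed with scipy 1.17.1. Intervals and floors cover counting error only, and the intervals take each fragment as independent. PCR copies are not independent molecules, so where they occur the intervals are too narrow. A gene counts as at least 2-fold higher or lower where it is measured (20 or more counts in all), called and past a ratio of 2. The size rule was tested on simulated counts. No test between treatments was possible with 1 library each.

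The members, gene lists and motifs were chosen with earlier results of these data known. Of each list, up to 3 measured genes whose intervals lay farthest from 0 in the direction of the median, and up to 2 in the other direction, are named, and all members, other ABCA genes and measured coding genes near the chromosome 17 block whatever their values, except that 2 genes of the lists are not reported here. NR1H2, ABCG1, KIT, 3 noncoding neighbours (AC011591.2, AC007780.1, KCNJ2-AS1) and the markers given as present or near 0 fall outside it: their values were known when they were chosen. Alternatives were 4 other scalings (among them DESeq2 1.42.0 size factors), other added counts and minimum counts, a thinned DMSO library, removal of a trend with gene length, a 99% interval and other windows.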

Additional observations from a re-analysis of the deposited data

How the results depend on the processing

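Each member's ratio was computed under 9 other settings. All 8 kept their sign in each, and all kept their call except ABCA3, whose 99% interval around 0.31 included 0. ABCA9 ranged from 2.57 to 2.67, ABCA6 from 1.69 to 1.84, ABCA5 from 1.59 to 1.74, ABCA10 from 1.29 to 1.39, ABCA1 from 0.69 to 0.81, ABCA2 from 0.56 to 0.68, ABCA3 from 0.27 to 0.41 and ABCA7 from 0.15 to 0.24. A change of scaling shifts every log2 ratio equally, and a 99% interval alters no ratio. These settings could not move the difference of medians between chromosome 17 and elsewhere, so they are no check of it. With other added counts, the thinned DMSO library or the length trend removed, that difference ranged from 1.23 to 1.27. No scaling moved the median of all genes by more than 0.05 on the log2 scale. The neighbour counts depend on the window: 5 higher and 1 lower within 500 kb, 0 higher within 250 kb, and 13 higher and 2 lower within 1000 kb, since more genes enter. For the lists and motifs, 268 alternative values passed as unchanged and 18 moved. Of the 18, 1 was the count of other ABCA genes called higher, which became 1 with a minimum of 1 count. A value that passed was not always near the reported one. The median of the LXR targets went from 0.12 to −0.25 with a minimum of 200 counts. That of the erythroid and megakaryocyte markers went from −0.16 to 1.03 with a minimum of 1 count. With the same minimum, that of the monocyte and macrophage markers went from 0.56 to 0.18. That of the lymphoid markers went from 0.40 to 0.05 with a minimum of 1 count and to 0.02 with a minimum of 200. Depth limits ABCA8, ABCA10 and ABCA1 most. No paired analysis was possible because each treatment has 1 library.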

Other observations

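At the far edge of the 1000 kb window to the right of the ABCA block, 841 kb away, KCNJ2, an inward-rectifier potassium channel gene, had 673 and 1023 counts (log2 ratio 0.78, 0.64 to 0.92). Its antisense neighbour KCNJ2-AS1 had 25 and 75 counts (log2 ratio 1.74, 1.09 to 2.47). On the left, KPNA2, a nuclear import receptor gene 820 kb away, had 12444 and 6410 counts and was lower (log2 ratio −0.78, −0.83 to −0.74). Inside the block, the pseudogene SEC24AP1 had 5 and 13 counts, under the minimum for a ratio. These genes were named after their values were seen.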
